A study of Mus musculus with 8 samples.

Results

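The insulin-like growth factor (IGF) family was followed across gastrocnemius, a calf muscle, of C57BL/6 mice. The 10 members were listed by name, but with earlier results of these data known. They are the ligands Igf1 and Igf2, the receptors Igf1r and Igf2r, and the binding proteins Igfbp2, Igfbp3, Igfbp4, Igfbp5, Igfbp6 and Igfbp7. All 10 were among the 23282 rows of every count table, and 9 were among the 13174 rows that passed edgeR's filter on low counts (filterByExpr). Igfbp2 was the member that did not pass.

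IGF ligands are secreted proteins that signal through the receptor tyrosine kinase encoded by Igf1r. In skeletal muscle that receptor acts through PI3K, Akt and mTOR to favour protein synthesis and growth of the fibres, and local Igf1 is made in muscle as well as in liver. Igf2r encodes a receptor that carries IGF2 to lysosomes and does not signal as a kinase. The IGF binding proteins hold the ligands outside the cell, extend their life, and release them when cut by proteases such as PAPP-A. Igfbp7 is a relative that binds the ligands weakly.

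The RNA was measured in 8 libraries made with the Lexogen QuantSeq kit, which reads the 3′ ends of transcripts, from 500 ng of RNA each. The 2 RP libraries came from mice that carried Lewis lung carcinoma, a transplanted mouse lung tumour line, under the skin and received 100 mg/kg of a Paeonia lactiflora extract (30% ethanol) by mouth daily for 2 weeks. The 3 Control libraries came from mice with the same tumour that received water, and the 3 Normal libraries from mice that were injected with saline in place of tumour cells and received water. Dosing began 2 weeks after the injection, when tumour-bearing mice were regrouped by tumour size, and the labels list an age of 4 weeks without saying at which step. All groups share the strain, the muscle, the injection volume of 100 µl and the gavage volume of 200 µl, and the labels give no genetic change, sex or number of mice per library.

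Groups follow the titles of the samples. For the 6 Normal and Control samples, however, the deposited tables are named after the opposite group, so each of these libraries is called Control-titled or Normal-titled throughout. If the tables and not the titles carry the right names, every difference between Control-titled and Normal-titled libraries turns round in sign, and what is given here for RP against Control-titled becomes RP against Normal, and the reverse.

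Totals were 9528011 to 12333767 counts per library. Values are library-scaled counts (CPM) after TMM scaling (edgeR's correction for library composition). Since a 3′ library yields about the same number of reads from a short and a long transcript, CPM was not divided by length. The tissue label was checked against 10 myofibre genes such as Acta1, Ckm and Myh4, all detected, which summed to 138609 and 142678 CPM in the RP libraries, 114409 to 135778 CPM in the Control-titled and 87335 to 122866 CPM in the Normal-titled libraries. Hepatocyte genes summed to 0.191 to 2.48 CPM in all 8 libraries, with Apoa1, Fgb and Apob at 0 in each.

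The members lie on 7 chromosomes of build GRCm38 (mm10), and a pair of them are neighbours. The spans printed here are from RefSeq. Distances to neighbouring genes are from the GENCODE annotation, where gene ends can differ. Igfbp5 (chr1:72858065-72874865, minus strand) and Igfbp2 (chr1:72824480-72852474, plus strand) are 5457 bases apart in GENCODE. Igfbp3 (chr11:7206086-7215498, minus strand) lies 3539 bases from Igfbp1, which had a count of 0 in all 8 libraries. Igfbp4 (chr11:99040005-99052655) is on the plus strand of the same chromosome. Igf1 is at chr10:87858265-87937047 (plus), Igf1r at chr7:67952257-68233668 (plus), Igf2 at chr7:142650768-142666816 (minus), Igf2r at chr17:12682406-12769706 (minus), Igfbp6 at chr15:102144186-102149512 (plus) and Igfbp7 at chr5:77349240-77408045 (minus). The last 300 bases of the transcripts, where 3′ reads fall, were free of sequence shared with another gene for 8 members. Igf2 shared 77.6% of its 40-base stretches there with the overlapping readthrough gene Gm49394, and Igfbp4 shared 10.1% with repeat-like sequence elsewhere, so counts of these members are less certain. Polr2b, on the opposite strand, covers 85 of the last 300 bases of Igfbp7, and the strand counted is not given in the sources used here.

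The promoters of Igfbp5, Igfbp3 and Igf1 are shown because these members differed most between Control-titled and Normal-titled libraries, Igfbp5 and Igf1 in one direction and Igfbp3 in the other. Each window runs from 250 bases before to 50 after an annotated start, from RefSeq on GRCm38.p6, written 5′ to 3′ on the gene's strand. The Igf1 and Igfbp3 windows lie wholly inside the gene spans given above, so the start used for them is not the outermost one. Capitals mark matches on either strand to the E-box letters CANNTG, to the TATA box TATAAA, and to close forms of it, which are TATTTAA and, as a further form, TATATA.
Igfbp5 (chr1:72874816-72875115, minus strand): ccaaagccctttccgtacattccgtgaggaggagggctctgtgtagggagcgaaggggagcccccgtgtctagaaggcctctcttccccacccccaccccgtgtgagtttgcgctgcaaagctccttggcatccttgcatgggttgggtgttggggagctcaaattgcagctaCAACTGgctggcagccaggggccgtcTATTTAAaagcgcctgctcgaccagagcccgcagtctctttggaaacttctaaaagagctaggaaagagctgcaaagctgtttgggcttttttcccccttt
Igfbp3 (chr11:7213874-7214173, minus strand): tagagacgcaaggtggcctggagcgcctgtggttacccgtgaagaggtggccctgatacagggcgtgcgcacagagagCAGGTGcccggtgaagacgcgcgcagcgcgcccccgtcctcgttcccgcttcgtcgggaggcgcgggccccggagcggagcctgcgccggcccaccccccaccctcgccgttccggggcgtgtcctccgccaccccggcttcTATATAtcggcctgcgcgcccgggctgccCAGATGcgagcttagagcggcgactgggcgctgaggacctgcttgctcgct
Igf1 (chr10:87860861-87861160, plus strand): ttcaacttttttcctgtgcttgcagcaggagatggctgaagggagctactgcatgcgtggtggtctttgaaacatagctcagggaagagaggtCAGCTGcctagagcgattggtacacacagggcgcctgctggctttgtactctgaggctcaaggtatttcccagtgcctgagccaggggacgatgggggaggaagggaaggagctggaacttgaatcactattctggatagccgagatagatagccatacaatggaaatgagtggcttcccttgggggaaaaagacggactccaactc
Counted from the start to the first base of the match, the Igfbp5 window had TATTTAA at -51 and an E-box at -77. The Igfbp3 window had TATATA at -30 and E-boxes at -172 and -1, and the Igf1 window had an E-box at -157 and none of the TATA forms. Of 32851 such windows across the genome, 72.3% held an E-box and 13.6% the TATA box, while TATTTAA was in 4.51% and TATATA in 5.67%. The Igfbp3 window had 37 CpG pairs and 71.7% G and C, against 10 CpG pairs and 56.3% in the Igfbp5 window and 6 CpG pairs and 52.3% in the Igf1 window. GTAAACA, a site bound by FoxO factors, was in 3.65% of all windows and in none of these 3.

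The first comparison, Control-titled against Normal-titled, asks what a tumour does to the muscle. Igfbp5, Igf1 and Igfbp6 were higher in the Control-titled libraries and Igfbp3 was lower, so 4 of the 9 members tested passed at an adjusted p of 0.05 (quasi-likelihood test of edgeR, adjusted by Benjamini-Hochberg over 13174 genes). Of all genes tested, 10.4% passed, 4.99% higher and 5.45% lower. The CPM of the groups did not overlap for 5 members, 3 higher and 2 lower, against 31.3% of all genes (16.6% higher and 14.7% lower). The other members tested, Igf2, Igf1r, Igf2r, Igfbp4 and Igfbp7, did not pass. The median log2 difference of the 9 was 0.05, against 0.000427 over all genes.

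**Figure D1:**
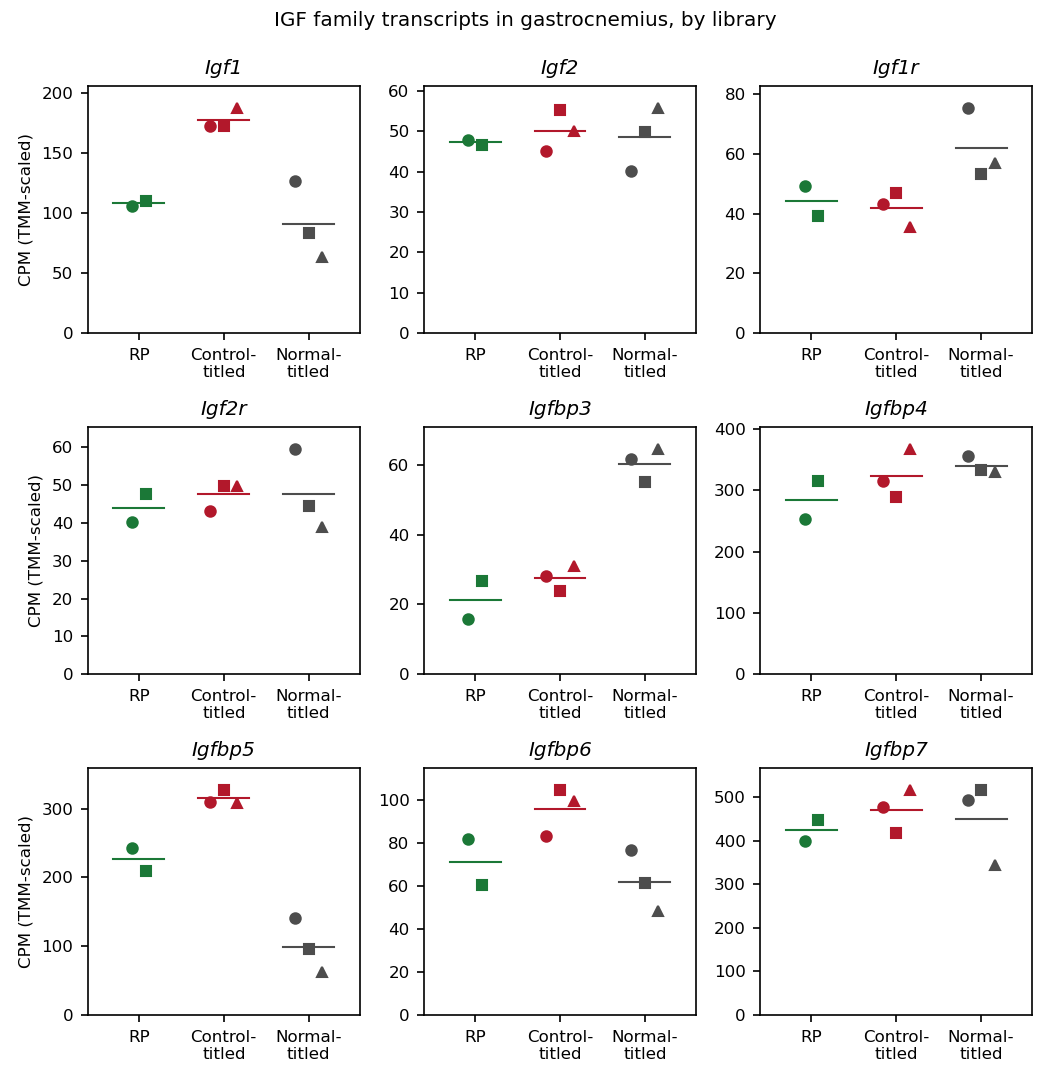
CPM of the 9 members tested, 1 panel each with its own axis from 0, by group (RP, Control-titled, Normal-titled). Each point is a library, with circles, squares and triangles for replicates 1, 2 and 3, and lines are group means. Igfbp5 is higher and Igfbp3 lower in every RP and Control-titled library than in any Normal-titled library, and Igf1 is highest in the Control-titled group.

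Of the ligands, Igf1, the growth factor of the postnatal muscle, stood at 173, 173 and 187 CPM in the Control-titled libraries, against 127, 83.7 and 63.2 CPM in the Normal-titled libraries. Every Control-titled library was above every Normal-titled one. The means were 178 ± 8.47 CPM and 91.3 ± 32.7 CPM (SD, n = 3 each), a log2 difference of 0.96 ± 0.21 (SE; edgeR adjusted p = 0.0104). Igf2, the imprinted ligand most used before birth, stood at 45.1, 55.2 and 50 CPM in the Control-titled libraries, against 40.2, 49.8 and 55.6 CPM in the Normal-titled libraries. These ranges overlapped, and the log2 difference was 0.05 ± 0.15 (SE; edgeR adjusted p = 0.886). H19, the noncoding RNA next to Igf2 that is transcribed from the other parental copy, was at 1021, 1111 and 999 CPM in the Control-titled and 952, 1419.8 and 2098 CPM in the Normal-titled libraries, with a log2 difference of -0.51 ± 0.23 (SE; edgeR adjusted p = 0.177). Igf1 CPM was 3.68 to 5.29 times Igf1r CPM in the Control-titled libraries and 1.11 to 1.69 times in the Normal-titled libraries.

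Of the receptors, Igf1r was at 43.3, 46.9 and 35.4 CPM in the Control-titled libraries, against 75.3, 53.2 and 57.2 CPM in the Normal-titled libraries. The groups did not overlap, but the log2 difference of -0.56 ± 0.17 (SE) missed the threshold in edgeR (adjusted p = 0.0545). It passed in DESeq2 (adjusted p = 0.032), with no filter on low counts (edgeR adjusted p = 0.0235) and without Normal 3 (edgeR adjusted p = 0.0442). Over 17 alternatives its adjusted p ran from 0.0235 to 0.221. Igf2r, the clearance receptor, was at 43.2, 49.7 and 49.9 CPM in the Control-titled libraries and 59.5, 44.4 and 38.8 CPM in the Normal-titled libraries. The Normal-titled libraries spanned all the Control-titled values, and both means were 47.6 CPM.

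Among the binding proteins, Igfbp5, a matrix-bound carrier that muscle and connective tissue cells secrete, stood at 310.0, 327 and 309 CPM in the Control-titled libraries, against 141, 95.3 and 62.7 CPM in the Normal-titled libraries. The Control-titled values lay close together and far above the widely spread Normal-titled ones. Its log2 difference was 1.66 ± 0.23 (SE; edgeR adjusted p = 0.000683), with means of 315 ± 9.85 CPM and 99.6 ± 39.2 CPM (SD, n = 3 each). Igfbp6, a carrier that prefers IGF2, was at 83.6, 105 and 99.6 CPM in the Control-titled and 76.7, 61.4 and 48.2 CPM in the Normal-titled libraries. The gap between the groups was narrow, at a log2 difference of 0.63 ± 0.18 (SE; edgeR adjusted p = 0.047).

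Igfbp3, the main carrier of IGFs in blood, went the other way. It stood at 28, 24 and 30.9 CPM in the Control-titled libraries, against 61.7, 55.1 and 64.5 CPM in the Normal-titled libraries. The groups were well apart, with means of 27.7 ± 3.47 CPM and 60.5 ± 4.83 CPM (SD, n = 3 each) and a log2 difference of -1.13 ± 0.19 (SE; edgeR adjusted p = 0.0023).

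Igfbp4, a carrier that mostly inhibits IGF action, was at 315, 289 and 367 CPM in the Control-titled and 356, 333 and 330.0 CPM in the Normal-titled libraries, a log2 difference of -0.07 ± 0.15 (SE; edgeR adjusted p = 0.81). Igfbp7 was at 478, 418 and 515 CPM in the Control-titled and 493, 515 and 344 CPM in the Normal-titled libraries, a log2 difference of 0.06 ± 0.17 (SE; edgeR adjusted p = 0.86). In both genes the groups overlapped. Igfbp2, a carrier abundant in liver and in the fetus, had 1 and 7 counts in the RP libraries, 1, 0 and 0 in the Control-titled and 0, 0 and 1 in the Normal-titled libraries. Only RP 2 was above the floor of 3 counts per library (0.265 to 0.323 CPM), so no difference was detectable for Igfbp2 at this depth.

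The calls of Igf1 and Igfbp6 were lost in some fits with 1 library left out, while their log2 differences stayed positive. The log2 difference of Igf1 was 0.92 without Control 3 (edgeR adjusted p = 0.0527) and 0.90 without Normal 2 (edgeR adjusted p = 0.0574), against 0.96 in the fit of all libraries. Igfbp6 was not called in 5 of the 6 such fits. Its log2 difference was 0.72, 0.58 and 0.60 without Control 1, 2 and 3 (edgeR adjusted p = 0.0767, 0.134 and 0.148), 0.62 without Normal 2 (0.129) and 0.47 without Normal 3 (0.102), against 0.63 in the fit of all libraries. Members called numbered 2 without Control 3 and 2 without Normal 2, where calls over all genes numbered 608 and 805 in place of 1376.

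The makeup of the binding protein transcripts differed more than their sum. The 6 Igfbp members summed to 1214, 1162 and 1322 CPM in the Control-titled libraries and 1128, 1060.4 and 849.8 CPM in the Normal-titled libraries. Igfbp5 took 25.5, 28.1 and 23.4% of that sum in the Control-titled libraries, against 12.5, 8.99 and 7.38% in the Normal-titled libraries, and 24.4 and 19.8% in the RP libraries. Igfbp3 took 2.31, 2.06 and 2.34% in the Control-titled libraries, against 5.47, 5.2 and 7.6% in the Normal-titled libraries, and 1.59 and 2.51% in the RP libraries. Igfbp7 and Igfbp4 were the most abundant of the 6 in the Normal-titled libraries, and over all 8 libraries Igfbp7 took 36.0 to 48.6% and Igfbp4 24.8 to 38.8%. The ratio of Igfbp5 to Igfbp3 CPM was 15.4 and 7.88 in the RP libraries, 11.1, 13.6 and 9.99 in the Control-titled libraries and 2.28, 1.73 and 0.971 in the Normal-titled libraries. This ratio is taken within a library, so scaling cancels out of it, and the lowest RP or Control-titled value lay above the highest Normal-titled value. It sets the member with the largest rise over the member with the largest fall. Since each of them already separated these libraries, the separation of the ratio follows from their CPM and is not further evidence.

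**Figure D2:**
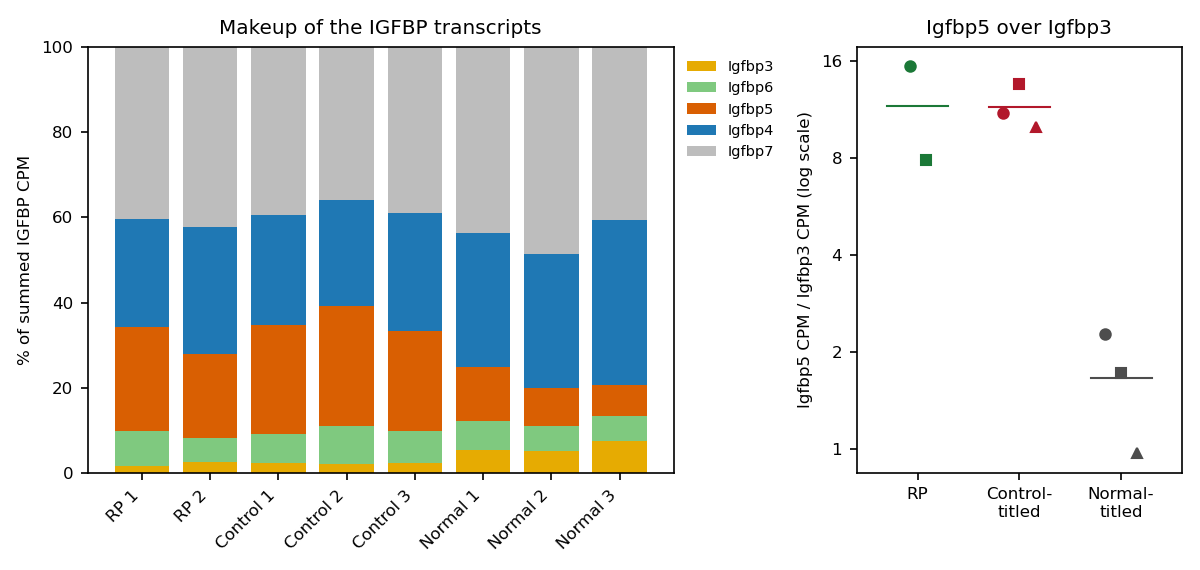
Left, the share of each Igfbp transcript in the summed Igfbp CPM of each library, in percent (Igfbp2, at most 0.0679%, is not drawn). Right, Igfbp5 CPM over Igfbp3 CPM by group on a log2 axis, 1 point per library (circle, square and triangle for replicates 1, 2 and 3) with lines at the group means. The Normal-titled libraries lie between 0.971 and 2.28, below the RP and Control-titled libraries.

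Markers of other cell types moved with these genes. In bulk RNA, fewer cells of a type and less RNA per cell cannot be told apart. Fibro-adipogenic progenitors and fibroblasts, the connective tissue cells of muscle, were followed by 13 genes such as Pdgfra, Dcn and Col3a1. Of these, 8 were higher and none lower in the Control-titled libraries, and they summed to 12859 to 14488 CPM there, against 7303 to 12936 CPM in the Normal-titled libraries. None of the 13 was at 0. Per 1000 CPM of these markers, Igfbp5 was 21.4, 24.4 and 24 CPM in the Control-titled and 10.9, 10.1 and 8.59 CPM in the Normal-titled libraries, and Igf1 was 11.9, 12.9 and 14.6 CPM against 9.83, 8.82 and 8.65 CPM. Neither overlapped. Igfbp6 per 1000 CPM of the same markers overlapped, at 5.77, 7.82 and 7.75 CPM in the Control-titled and 5.93, 6.47 and 6.61 CPM in the Normal-titled libraries. The share of all genes without overlap was not taken on scales per marker, and on plain CPM it was 31.3%.

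Endothelial cells, which line vessels, were followed by 15 genes such as Pecam1 and Cdh5. None was higher and 4 were lower in the Control-titled libraries, and they summed to 2812 to 3021 CPM there, against 3059 to 4418 CPM in the Normal-titled libraries. Per 1000 CPM of these, Igfbp3 was 9.97, 7.94 and 10.3 CPM in the Control-titled and 14.4, 12.5 and 21.1 CPM in the Normal-titled libraries, again without overlap. Per 1000 CPM of the same markers Igfbp7, also made by vessel cells, was higher in every Control-titled library, at 170, 139 and 172 CPM, than in the Normal-titled libraries, at 115, 117 and 113 CPM. Undivided, Igfbp7 CPM overlapped between these groups (log2 difference 0.06, edgeR adjusted p = 0.86), while the marker sum was lower in the Control-titled libraries. Blood markers moved as well. Of 10 neutrophil genes tested 9 were lower, with sums of 16.4 to 28.7 CPM in the Control-titled and 972 to 1995 CPM in the Normal-titled libraries, and of 11 erythroid genes 10 were lower. Of the other lists, 4 of 9 tenocyte, 2 of 10 myofibre and 1 of 12 macrophage and monocyte genes were higher and none lower. Lower were 2 of 10 satellite cell and 1 of 11 smooth muscle and pericyte genes, with none higher. For all genes tested the shares were 4.99% higher and 5.45% lower. Haemoglobin genes held 1.41 to 1.61% of counts in the Control-titled and 4.57 to 19.7% in the Normal-titled libraries. With log2 Hba-a1 as a covariate, no member was called in edgeR, and calls over all genes numbered 382 in place of 1376. The log2 differences were then 0.91 for Igfbp5 (adjusted p = 0.0807), -0.77 for Igfbp3 (adjusted p = 0.152), 0.39 for Igf1 (adjusted p = 0.458) and 0.04 for Igfbp6 (adjusted p = 0.945). Haemoglobin shares did not overlap between these groups, so the covariate and the group cannot be fully told apart. The part of these cell types and of blood in the results was not tested.

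**Figure D3:**
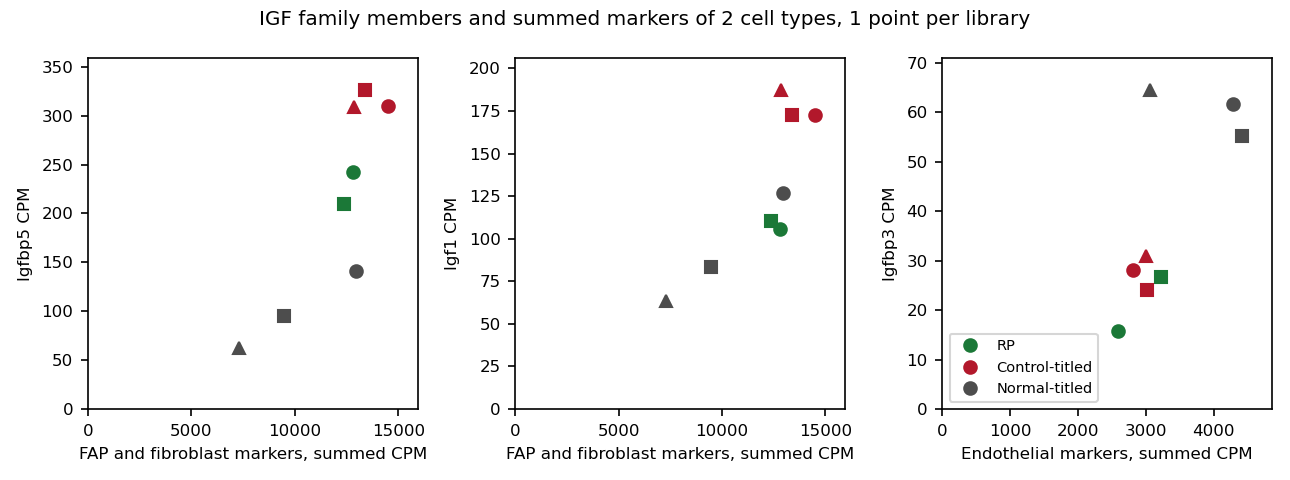
CPM of Igfbp5 and Igf1 against the summed CPM of 13 fibro-adipogenic progenitor (FAP) and fibroblast markers, and of Igfbp3 against 15 endothelial markers, 1 point per library, with colours for groups and circles, squares and triangles for replicates 1, 2 and 3. Normal 1 lies within the range of the other groups on the fibroblast axis, at 12936 CPM, and its Igfbp5 of 141 CPM is below all RP and Control-titled values. Normal 2 and Normal 3, at 9484 and 7303 CPM, lie below every RP and Control-titled library on that axis. Their Igfbp5 is lower too, at 95.3 and 62.7 CPM.

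The second comparison, of RP with Control-titled libraries, addressed the effect of the extract in tumour-bearing mice. No member passed in edgeR's quasi-likelihood test, where 0.175% of all genes did, 0.144% higher and 0.0304% lower. At an unadjusted p under 0.05 there was 1 member, Igf1, and DESeq2 and limma-voom called 0. The share of all genes at that unadjusted p was not taken, here or below. The log2 difference was below 0 for 8 of the 9 members, with a median of -0.19 against -0.00382 over all genes. The CPM of the groups did not overlap for 3 members, Igf1, Igfbp5 and Igfbp6, all lower in RP. Of all genes 31.7% did not overlap, with 16.4% lower in RP.

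Igf1 was at 106 and 111 CPM in the RP libraries, against 173, 173 and 187 CPM in the Control-titled libraries. Both RP values were well under the lowest Control-titled one, and within the spread of the Normal-titled libraries. The log2 difference was -0.72 ± 0.23 (SE; edgeR adjusted p = 0.341), and it passed only when the fit held no Normal-titled library (-0.72, edgeR adjusted p = 0.0156), where 121 genes passed in place of 23. Over 16 alternatives the adjusted p of Igf1 ran from 0.0156 to 0.814. Igfbp5 was at 242 and 209.9 CPM in the RP libraries, against 310.0, 327 and 309 CPM in the Control-titled libraries, with a log2 difference of -0.48 ± 0.25 (SE; edgeR adjusted p = 0.613). Igfbp6 was at 81.8 and 60.5 CPM in the RP libraries, against 83.6, 105 and 99.6 CPM in the Control-titled libraries, with a log2 difference of -0.43 ± 0.21 (SE; edgeR adjusted p = 0.572). RP 1 was only just below Control 1 for Igfbp6.

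Igfbp3 was at 15.7 and 26.6 CPM in the RP libraries, against 28, 24 and 30.9 CPM in the Control-titled libraries, with RP 2 inside the Control-titled range and a log2 difference of -0.38 ± 0.22 (SE; edgeR adjusted p = 0.64). Igf1r was the member above 0, at 49.3 and 39.4 CPM in the RP libraries and a log2 difference of 0.08 ± 0.19 (SE; edgeR adjusted p = 0.943). Igf2 (47.8 and 46.7 CPM), Igf2r (40.2 and 47.6 CPM), Igfbp4 (253 and 315 CPM) and Igfbp7 (399.8 and 447 CPM) in the RP libraries all overlapped the Control-titled values, with log2 differences of -0.19 to -0.08. The fibroblast markers summed to 12380 and 12792 CPM in the RP libraries, against 12859 to 14488 CPM in the Control-titled libraries, and none of the 13 passed in edgeR, DESeq2 or limma-voom (3 at an unadjusted p under 0.05 in edgeR). Per 1000 CPM of these markers Igf1 was 8.27 and 8.93 CPM in the RP libraries, below the 11.9 to 14.6 CPM of the Control-titled libraries, and Igfbp5 was 19 and 17 CPM, below 21.4 to 24.4 CPM. Igfbp6 overlapped on this scale, at 6.39 and 4.88 CPM in the RP libraries and 5.77 to 7.82 CPM in the Control-titled libraries. Per 1000 CPM of macrophage and monocyte markers Igf1 overlapped too, at 245 and 166 CPM in the RP and 232 to 332 CPM in the Control-titled libraries, as did Igfbp3 per 1000 CPM of endothelial markers, at 6.07 and 8.27 CPM in the RP and 7.94 to 10.3 CPM in the Control-titled libraries. Haemoglobin genes held 0.862% of counts in RP 1 and 3.83% in RP 2, below and above the 1.41 to 1.61% of the Control-titled libraries. The neutrophil genes summed to 41.4 CPM in RP 1 and 510.3 CPM in RP 2, against 16.4 to 28.7 CPM in the Control-titled libraries, and 2 of 10 passed as higher. The part of these cells in the values was not tested.

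**Figure D4:**
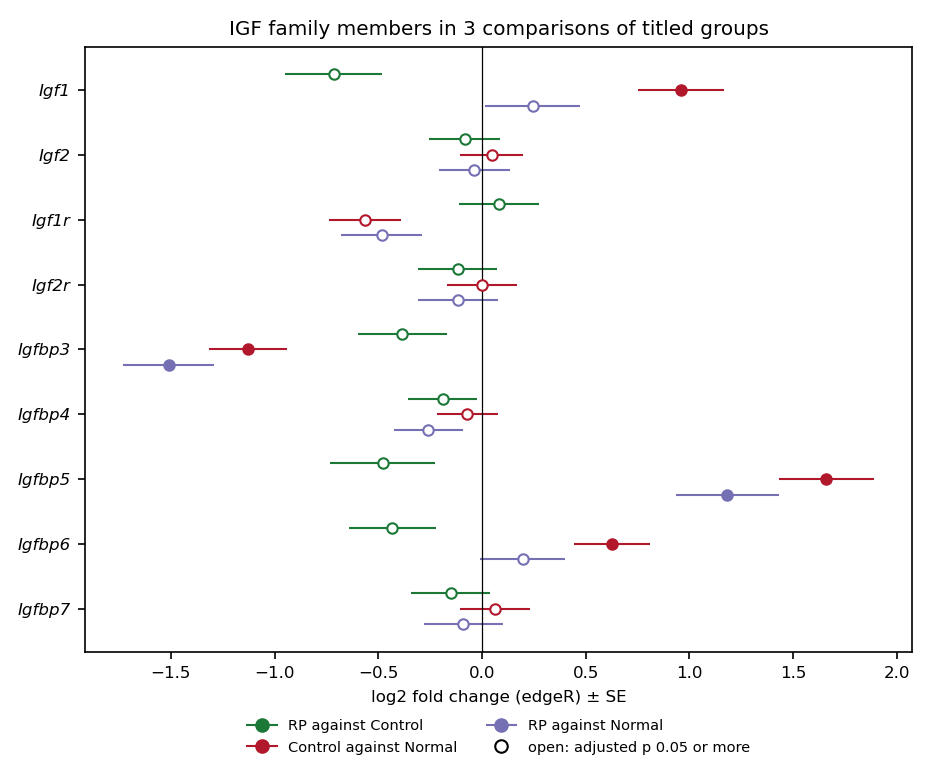
Log2 fold change (points) and its SE (bars) of the 9 members in RP against Control-titled, Control-titled against Normal-titled and RP against Normal-titled libraries, from edgeR. Filled points passed the adjusted p of 0.05: 4 in Control against Normal, 2 in RP against Normal and 0 in RP against Control.

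The third comparison set RP against Normal-titled libraries. It shares the Normal-titled libraries with the first and the RP libraries with the second, so its values are not separate evidence. Igfbp5 was higher and Igfbp3 lower in RP, 2 of 9 members, where 2.5% of all genes passed, 1.67% higher and 0.835% lower. Groups did not overlap for 4 members, 1 higher and 3 lower, against 30.8% of all genes (15.4% in each direction). The median log2 difference of the 9 members was -0.09, against -0.04 over all genes.

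Igfbp5 stood at 242 and 209.9 CPM in the RP libraries, against 141, 95.3 and 62.7 CPM in the Normal-titled libraries, a log2 difference of 1.18 ± 0.25 (SE; edgeR adjusted p = 0.0246). The lower RP library was above the highest Normal-titled one. The call was lost, at a log2 difference near that of the fit of all libraries, without RP 1 (1.08, edgeR adjusted p = 0.238), without RP 2 (1.28, 0.0608), without Normal 2 (1.15, 0.107) and with only these groups in the fit (1.21, 0.0831). Calls over all genes numbered 57, 230, 137 and 100 in these fits, in place of 330. Igfbp3 stood at 15.7 and 26.6 CPM in the RP libraries, against 61.7, 55.1 and 64.5 CPM in the Normal-titled libraries, a log2 difference of -1.51 ± 0.22 (SE; edgeR adjusted p = 0.00302), which was -1.18 without RP 1 (edgeR adjusted p = 0.0507). The highest RP value was less than the lowest Normal-titled value by a wide margin. With log2 Hba-a1 as a covariate neither was called, and calls over all genes numbered 104 in place of 330. The log2 difference of Igfbp3 was then -1.24 (edgeR adjusted p = 0.0578), against -1.51 without the covariate. That of Igfbp5 was 0.56 (edgeR adjusted p = 0.245), against 1.18. Here too the haemoglobin shares of the groups did not overlap, so covariate and group cannot be fully told apart. Beside these values, 4 of the 13 fibroblast markers were higher in RP and none lower, 1 of the 15 endothelial markers was lower and none higher, and 3 of 11 erythroid and 2 of 10 neutrophil genes were lower. Of the other lists, 2 of 9 tenocyte and 1 of 10 myofibre genes were higher, and 1 of 10 satellite cell and 1 of 8 adipocyte genes were lower. The part of these cells in the values was not tested.

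Igf1, at 106 and 111 CPM in RP, lay between Normal 1 and Normal 2, with a log2 difference of 0.24 ± 0.23 (SE; edgeR adjusted p = 0.643). Igf1r was lower in both RP libraries than in any Normal-titled library, at 49.3 and 39.4 CPM against 75.3, 53.2 and 57.2 CPM, and missed the threshold (log2 difference -0.48 ± 0.20, SE; edgeR adjusted p = 0.224). Igfbp4 was also below, at 253 and 315 CPM in the RP libraries against 356, 333 and 330.0 CPM in the Normal-titled libraries (log2 difference -0.26 ± 0.17, SE; edgeR adjusted p = 0.468). The log2 differences of Igf2, Igf2r, Igfbp6 and Igfbp7 lay between -0.12 and 0.20 with overlapping groups.

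The rest of the IGF system, with loci that neighbour or overlap the members, was read from 6 lists with 96 genes in all. Of the 96, 91 had a row in the count tables and 80 were tested. The neighbouring or overlapping loci were 7 genes listed for their position. Of these 7, 2 were tested, H19 and Airn, and 0 were called in any comparison. In Control-titled against Normal-titled libraries 5 of the 80 were higher and 11 lower, 20% of those tested, against 10.4% of all genes. Their median log2 difference was -0.02, against 0.000427 over all genes. In RP against Normal-titled libraries 2 were higher and 3 lower, 6.25% of those tested against 2.5% of all genes, with a median of -0.14 against -0.04. In RP against Control-titled libraries edgeR called 0, and DESeq2 called 1 and limma-voom 0. In edgeR 12 were at an unadjusted p under 0.05, a count without the share of all genes beside it. The count in Control-titled against Normal-titled libraries was 9 without Control 1 and 10 without Control 3, and that in RP against Normal-titled libraries was 1 without RP 1, 3 without Normal 2 and 9 without Normal 1.

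Upstream of Igf1, 0 of 9 growth hormone axis genes passed in any comparison in edgeR. At an unadjusted p under 0.05 there were 1 in RP against Control, 5 in Control against Normal and 3 in RP against Normal. Because the share of all genes at that unadjusted p was not taken, these counts have no background to be read against. DESeq2 called 1, 0 and 2 in that order, and limma-voom called 0 in each. Ghr, the growth hormone receptor, was at 114, 109 and 113 CPM in the Control-titled and 93.8, 88.6 and 97.3 CPM in the Normal-titled libraries, without overlap but short of the threshold (log2 difference 0.26 ± 0.13, SE; edgeR adjusted p = 0.219). Cish, a feedback inhibitor that growth hormone induces, was picked out after its values were seen. It was at 12.8 and 14.8 CPM in the RP libraries, against 64.6, 17.9 and 46.7 CPM in the Control-titled libraries. Control 2 stood far below the other 2 of its group. The log2 difference was -1.64 ± 0.39 (SE), with an adjusted p of 0.154 in edgeR, 0.00177 in DESeq2 and 0.00537 in edgeR without Control 2, and over 16 alternatives it ran from 5.65e-05 (no filter) to 0.538 (without RP 1).

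Of 9 tested genes that cut, protect or carry IGF binding proteins, 1 was higher and 1 lower in Control-titled against Normal-titled libraries. Over all genes 4.99% were higher and 5.45% lower, so counts this small are near that share. Htra1, a secreted protease that cleaves several IGFBPs, was at 36.8, 26.8 and 31.2 CPM in the Control-titled and 16.9, 18.5 and 16.6 CPM in the Normal-titled libraries (log2 difference 0.87 ± 0.16, SE; edgeR adjusted p = 0.00458). Stc1, a secreted inhibitor of PAPP-A, was at 3.17, 3.40 and 3.53 CPM in the Control-titled and 14.2, 23.9 and 29.2 CPM in the Normal-titled libraries (log2 difference -2.73 ± 0.30, SE; edgeR adjusted p = 0.000116). Stc1 was lower in RP as well, at 6.25 and 3.50 CPM (log2 difference -2.20 ± 0.34 from the Normal-titled libraries, SE; edgeR adjusted p = 0.00411). Pappa, the gene of PAPP-A itself, was low, at 1.40 to 2.73 CPM in the Control-titled and 2.52 to 7.02 CPM in the Normal-titled libraries, and did not pass (edgeR adjusted p = 0.128). Igfals, the third part of the complex that carries IGFs in blood, was at 2.16 to 6.78 CPM over all 8 libraries and did not pass in any comparison.

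Among 9 tested relatives that share the IGFBP domain, 2 were higher and 1 lower in Control-titled against Normal-titled libraries, where 4.99% of all genes were higher and 5.45% lower. Besides Htra1, which is on both lists, Kazald1 was higher at 8.55, 10.6 and 10.5 CPM in the Control-titled, against 4.23, 2.58 and 3.88 CPM in the Normal-titled libraries (log2 difference 1.46 ± 0.28, SE; edgeR adjusted p = 0.00515). Ctgf, a matricellular protein of fibrosis, was at 134, 182 and 157 CPM in the Control-titled and 995, 385 and 214 CPM in the Normal-titled libraries (log2 difference -1.75 ± 0.43, SE; edgeR adjusted p = 0.0213). Its Normal-titled values spread widely, with Normal 1 the highest.

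At the receptor, 1 of 14 tested genes was higher and 2 lower in Control-titled against Normal-titled libraries. The shares of all genes were 4.99% higher and 5.45% lower, and the count of 1 higher is near the first of these. Insr, the insulin receptor, was at 19.5, 24.6 and 21.3 CPM in the Control-titled and 43.5, 32.5 and 28.2 CPM in the Normal-titled libraries (log2 difference -0.67 ± 0.18, SE; edgeR adjusted p = 0.0316). Ptpn1, a phosphatase that switches the insulin receptor off, was at 34.0, 36.0 and 34.6 CPM in the Control-titled and 66.3, 61.5 and 51.7 CPM in the Normal-titled libraries (log2 difference -0.78 ± 0.14, SE; edgeR adjusted p = 0.00384). Grb14, an adaptor that inhibits insulin receptor signalling, was at 14.0 and 12.9 CPM in the RP, 15.5, 14.2 and 15.5 CPM in the Control-titled and 7.02, 4.40 and 4.17 CPM in the Normal-titled libraries. It was higher than in Normal-titled libraries both in the Control-titled (log2 difference 1.53 ± 0.22, SE; edgeR adjusted p = 0.00104) and in the RP libraries (1.36 ± 0.25, SE; edgeR adjusted p = 0.0109). The receptor substrates Irs1 and Irs2 did not pass in any comparison. Irs1 was at 71.4 to 94.1 CPM in the Control-titled and 63.9 to 71.7 CPM in the Normal-titled libraries, and Irs2 at 2.44 to 6.2 CPM in the Control-titled and 4.56 to 9.18 CPM in the Normal-titled libraries.

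Of 38 tested genes of the PI3K, Akt and mTOR pathway, 2 were higher and 7 lower in Control-titled against Normal-titled libraries. Together they made 23.7% of those tested, against 10.4% of all genes. Of all genes 4.99% were higher and 5.45% lower, so the count of those higher was near that share. Those lower included brakes on mTOR or on translation. Eif4ebp1, which holds back cap-dependent translation, was at 99.5 and 92.5 CPM in the RP, 68.5, 59.4 and 60.7 CPM in the Control-titled and 166, 308 and 287 CPM in the Normal-titled libraries. All RP and Control-titled values were below all Normal-titled ones, with log2 differences from the Normal-titled libraries of -1.40 ± 0.23 in RP (SE; edgeR adjusted p = 0.00692) and -2.01 ± 0.21 in the Control-titled libraries (SE; edgeR adjusted p = 7.77e-05). Sesn1, a sestrin that restrains mTOR, was at 25.1 and 30.3 CPM in the RP, 18.7, 24.1 and 20.4 CPM in the Control-titled and 72.4, 44.9 and 43.7 CPM in the Normal-titled libraries, and was called lower than in the Normal-titled group both times (edgeR adjusted p = 0.0485 for RP and 0.00125 for Control-titled). Ddit4, a stress-induced inhibitor of mTOR, was at 47.4, 105 and 83.3 CPM in the Control-titled and 204, 166 and 224 CPM in the Normal-titled libraries (log2 difference -1.34 ± 0.25, SE; edgeR adjusted p = 0.00451).

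Foxo1, a transcription factor that Akt holds out of the nucleus, was at 68.6 and 53.3 CPM in the RP, 30.7, 40.4 and 46.6 CPM in the Control-titled and 62.1, 54.1 and 81.5 CPM in the Normal-titled libraries. It was lower in the Control-titled than in the Normal-titled libraries (log2 difference -0.75 ± 0.19, SE; edgeR adjusted p = 0.0269), while RP against Control-titled libraries did not pass (0.64 ± 0.21, SE; edgeR adjusted p = 0.366). Foxo1 shares 9.2% of its 3′ stretches with other genes, so its counts are less certain. The lower members also took in Mtor itself, Gsk3b and Pik3r1, so the 7 do not share one role. Those higher were Inppl1, a lipid phosphatase that opposes PI3K, and Pik3r2, a regulatory subunit of PI3K. Inppl1 was at 107 and 108 CPM in the RP, 110.1, 100.4 and 118 CPM in the Control-titled and 61.7, 71.5 and 64.4 CPM in the Normal-titled libraries, and was called higher than in the Normal-titled group both times (edgeR adjusted p = 0.0239 for RP and 0.00431 for Control-titled). Pik3r2 was at 10.0 and 11.1 CPM in the RP, 23.3, 14.9 and 16.5 CPM in the Control-titled and 8.28, 12.2 and 9.61 CPM in the Normal-titled libraries, and was called in Control-titled against Normal-titled libraries (edgeR adjusted p = 0.0233).

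**Figure D5:**
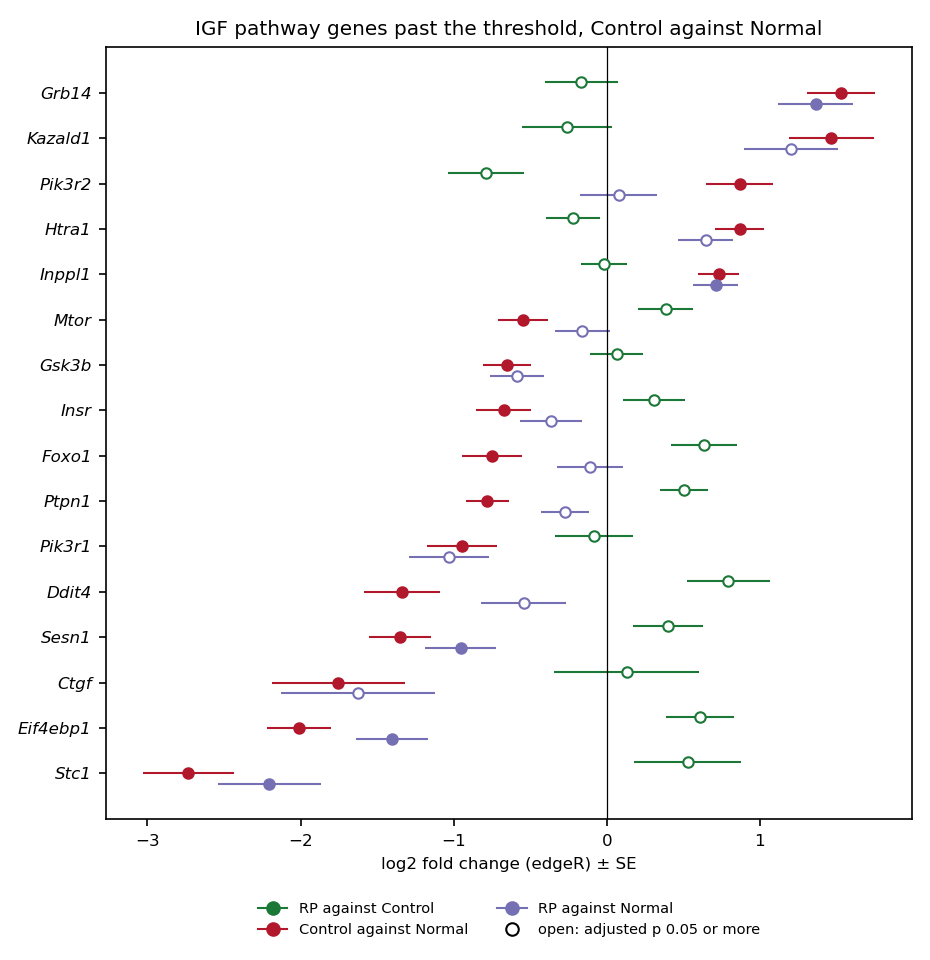
Log2 fold change (points) and its SE (bars) from edgeR of the 16 pathway genes that passed in Control-titled against Normal-titled libraries, in all 3 comparisons of the titled groups. Filled points passed the adjusted p of 0.05. Stc1 and Eif4ebp1 lie furthest to the left at -2.73 and -2.01, Grb14 and Kazald1 furthest to the right at 1.53 and 1.46, and 5 of the 16 also passed in RP against Normal.

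The genes whose pattern over the 8 libraries was most like that of each called member were found by the root mean square (RMS) difference of log2 CPM, centred per gene, among 9736 genes with a mean of at least 5 CPM. The 3 nearest to Igfbp5 were Fndc1, Adamts2 and Pcolce, at 0.175, 0.177 and 0.180, where Igfbp5 itself varied about its mean by 0.825. Adamts2 and Pcolce act on procollagen outside the cell. The nearest to Igf1 (own variation 0.517) were Dact1, Marcks and Antxr1, at 0.103, 0.128 and 0.145. The nearest to Igfbp6 (own variation 0.357) were Dbn1, Akap12 and Glb1, at 0.105, 0.106 and 0.118. Igfbp3 (own variation 0.684) had no neighbour as close, with Gsr at 0.210, Bsdc1 at 0.220 and Itgb2, an integrin subunit of white blood cells, at 0.226. These distances describe 8 libraries that differ together in groups and in blood content, and carry no test.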

How the data were processed

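Gastrocnemius RNA was sequenced in 8 QuantSeq 3′ libraries. The deposited tables give, for each library, unnormalized counts of reads by gene symbol. Bowtie2, edgeR and build mm10 are named, without versions, in the submitters' processing notes. The counting tool, annotation and strand counted are not given in the sources used here. Whether a library stands for 1 mouse is not in the labels, so the spread behind each p-value may be technical. Members, lists and tests were chosen with earlier results of these data known. The rule for named genes took all members, up to 3 higher and 3 lower genes per pathway list and comparison with the largest change past the threshold, and Insr, Irs1, Irs2, Ghr, Foxo1, Pappa, H19 and Igfals. Counts were fitted in R 4.3.3 with edgeR 4.0.16 (TMM, filterByExpr, quasi-likelihood test, 2-sided, all 8 libraries in 1 fit) with Benjamini-Hochberg adjustment over 13174 genes. Each SE was derived from that test, as the absolute log2 difference divided by the square root of its F statistic. The pipeline was tested on simulated data. Alternatives were DESeq2 1.42.0, limma-voom (limma 3.58.1), RLE and upper-quartile scaling, removal of haemoglobin genes and Rn45s, a minimum mean CPM of 5, no filter, only the 2 groups compared, a replicate block, an adjusted p of 0.1 and leaving out each library. Log2 Hba-a1 as a covariate was added after the data were seen. Floors cover counting error only. Gene spans and promoters came from RefSeq. Strands, overlaps, distances between genes and transcript ends came from GENCODE. Both were on GRCm38, and all 10 members matched by symbol. Figures were drawn with matplotlib 3.10.9.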

Additional observations from a re-analysis of the deposited data

How the results depend on the processing

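Counts of members called stood at 4 in Control against Normal, 2 in RP against Normal and 0 in RP against Control under RLE and upper-quartile scaling, removal of haemoglobin genes and Rn45s, a mean CPM of at least 5, limma-voom and the replicate block. In Control against Normal the count was 5 with no filter, in DESeq2 and at an adjusted p of 0.1, and 2 to 4 with 1 library left out. With only the groups compared it was 1 in RP against Control and 1 in RP against Normal. With 1 library left out it was 0 to 2 in RP against Normal and 0 in RP against Control. A lone RP library was then assumed to vary like the other groups. With log2 Hba-a1 as a covariate it was 0 in all 3 comparisons. Pathway genes called in RP against Control numbered 5 with no filter, 1 in DESeq2, 1 with only the groups compared and 0 to 1 with 1 library left out. In Control against Normal they numbered 9 to 21 with 1 library left out and 7 with the Hba-a1 covariate. In RP against Normal they numbered 13 with no filter, 10 in DESeq2, 2 with only the groups compared, 9 at an adjusted p of 0.1, 1 to 9 with 1 library left out and 0 with the Hba-a1 covariate. The cause was not tested. Neighbouring loci were among these pathway genes. They were Tnp1 with no filter in both RP comparisons, and H19 without Normal 1 in both comparisons with Normal. Over all genes, calls in RP against Control numbered 204 with no filter, 110 in DESeq2, 121 with only the groups compared, 34 with the covariate, 11 at a mean CPM of at least 5 and 10 in limma-voom, in place of 23. In RP against Normal they numbered 718, 644, 100 and 104 under no filter, DESeq2, only the groups compared and the covariate, in place of 330, and in Control against Normal 382 with the covariate in place of 1376. No called member changed sign under any alternative. Members near 0 did, on the log2 scale. In RP against Control, Igf1r was at -0.00756 with the replicate block. In Control against Normal, Igf2r was at -0.00635 with RLE scaling, -0.00641 in DESeq2 and -0.246 with the Hba-a1 covariate, and Igfbp7 was at -0.199 with that covariate. In RP against Normal, Igf2 was at 0.0281 with the replicate block, and with the Hba-a1 covariate Igf1, Igf2 and Igfbp6 were at -0.211, 0.231 and -0.322. With 1 library left out, the range in RP against Control ran for Igf1r from -0.0871 to 0.236 and for Igf2r from -0.242 to 0.0016. In Control against Normal it ran for Igf2 from -0.0743 to 0.15, for Igf2r from -0.131 to 0.192, for Igfbp4 from -0.169 to 0.0186 and for Igfbp7 from -0.105 to 0.168. In RP against Normal it ran for Igf2 from -0.158 to 0.0883, for Igf2r from -0.242 to 0.0761, for Igfbp6 from -0.0376 to 0.399 and for Igfbp7 from -0.233 to 0.0166. Same-numbered libraries deviated from their group means with correlations of -0.07 to 0.08 across genes, and the replicate block changed no call of a member. With 2 or 3 libraries per group, such correlations cannot show whether a number marks a shared animal, day or batch, and the labels do not say. At this depth a member under the floor of 3 counts, as Igfbp2 was in 7 of 8 libraries, cannot be compared.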
